A study of Mus musculus with 6 samples.

Results

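The tripartite motif (TRIM) genes, a family of mostly RING-type ubiquitin ligases, were measured by RNA-Seq in murine pancreatic stellate cells (PSCs) kept at an acidic or an alkaline extracellular pH (pHe). The family was taken up with earlier results of these data known, and its members by name, as every gene of the authors' comparison table whose symbol is Trim followed by a digit. This gave 45 genes of the 15197 that passed a filter of 0.5 CPM (a gene's counts scaled to a fixed library total) in at least 2 libraries, out of 49671 genes in the count table. A further 24 genes of the mouse annotation carry such a symbol and lay below the filter, 6 of them with no count in any library. Of the 45 genes, 40 reached the filter in at least 2 libraries of each group, whereas Trim72, Trim30c and Trim17 reached it in 2 or more libraries only at pHe6.6, and Trim9 and Trim15 only at pHe7.4.

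The question was how environmental pH alters PSCs, the resident fibroblast-like cells of the pancreas that deposit matrix in fibrosis and pancreatic cancer. Primary PSCs of WT C57BL6/J mice were cultured without passaging for 120 h at pHe6.6 (replicates A, B and C) or at pHe7.4 (replicates A, B and C), in DMEM/Ham F12 with fetal calf serum. Sodium bicarbonate was used to adjust the pH of the media, so that pH and bicarbonate cannot be told apart here. The labels call the 3 libraries of each group biological replicates and do not say whether the same letter marks the same mouse, nor do they give the animals' age.

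Libraries held 28904761 to 38331877 counts, so that 1 count corresponded to 0.0252 to 0.0339 CPM, with a common biological coefficient of variation of 0.140. The 11 markers of stellate cells and fibroblasts summed to 37560 to 40520 CPM at pHe6.6, against 38660 to 48780 CPM at pHe7.4. Of these 11 genes, 6 were higher and 1 lower, against 26.4% and 25.9% of all genes tested. The log2 fold changes of these were 1.94 for Lum, 1.62 for Dcn, 1.08 for Thy1, 1.06 for Pdgfra, 0.68 for Des, 0.65 for Pdgfrb and -0.97 for Col1a1. The other 4 did not pass the test, among them Acta2 (-0.55). Fibroblast markers thus differed between the groups by sizes like those of the TRIM genes, and their part in the TRIM results was not tested. Markers of other cell types were present at lower levels. The macrophage markers summed to 690.2, 830.1 and 1305 CPM in pHe6.6 A, B and C, and to 615.7, 934 and 794.6 CPM in pHe7.4 A, B and C. The mesothelial markers summed to 174.9, 593.1 and 458.8 CPM at pHe6.6, against 1487, 1563 and 1575 CPM at pHe7.4. The B cell markers reached 65.6 CPM in pHe6.6 C and at most 4.62 CPM in the other libraries. As these were bulk samples, fewer cells of a type and less RNA per cell cannot be told apart.

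TRIM proteins usually join a RING domain, which recruits a ubiquitin-conjugating enzyme, to B-box and coiled-coil domains, and differ in the domain at their C-terminal end, which selects the target. Many of them act in innate immunity, where they modify sensors of viral RNA and DNA or their adaptors, and many are themselves induced by interferon. Interferon does so through factors that bind the interferon-stimulated response element (ISRE) in promoters, while other members of the family act in chromatin silencing or on the cytoskeleton.

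Of the 45 TRIM genes, 20 were higher and 10 were lower at pHe6.6, and 15 did not pass edgeR's quasi-likelihood test at an adjusted p of 0.05 (Benjamini-Hochberg, over all genes). Over all genes tested, 26.4% were called higher and 25.9% lower, that is 52.3% in either direction, against 44.4% higher, 22.2% lower and 66.7% in either direction among the TRIM genes. Among the 40 genes that reached the filter in both groups, a set chosen after seeing the data, 18 were higher (45.0%, against 27.3% of all such genes) and 10 were lower (25.0%, as among all such genes). With an absolute log2 fold change over 0.58 (1.49-fold) as a further limit, 16 TRIM genes were called (35.6%, against 29.8% of all genes), of which 13 were higher (28.9%, against 15.0% of all genes) and 3 were lower (6.67%, against 14.7% of all genes). Without the genes outside that set, among them Trim72 and Trim30c, 11 of the 40 genes were higher beyond the limit (27.5%, against 14.9% of all such genes). With the limit placed inside the test (edgeR's glmTreat), 8 genes were higher (17.8%, against 8.33% of all genes) and 3 lower (6.67%, against 7.02% of all genes), and 6 of the 40 genes of the set were higher (15.0%, against 8.15% of all such genes). The 3 pHe6.6 libraries lay above all 3 pHe7.4 libraries for 22 TRIM genes (48.9%, against 31.5% of all genes) and below them for 9 (20.0%, against 31.7% of all genes), which makes 68.9% without overlap, against 63.2% of all genes. Among the 40 genes of the set, 19 lay above (47.5%, against 32.6% of all such genes) and 9 below (22.5%, against 30.6%). The median log2 fold change was 0.12 over the TRIM genes and -0.01 over all genes. The members' summed level was 2199, 2195 and 2228 CPM at pHe6.6, against 1982, 1937 and 1980 CPM at pHe7.4.

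**Figure D1:**
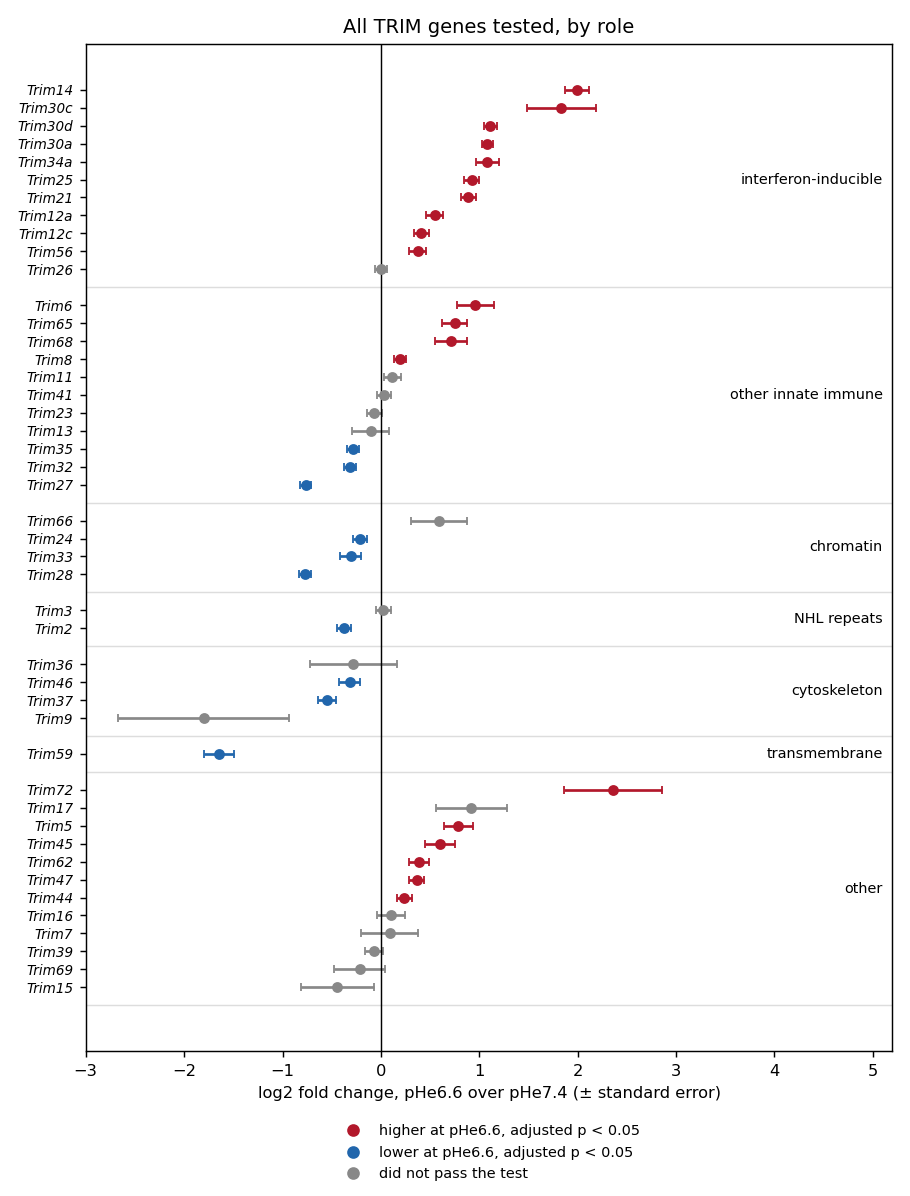
Log2 fold change of each of the 45 TRIM genes, pHe6.6 over pHe7.4 (x axis), grouped by known role down the page, each gene in the first role that lists it. Points are the fitted values and bars their standard errors (n = 3 libraries per group). Of the 11 interferon-inducible genes, 10 are higher at pHe6.6, with Trim26 at 0, whereas Trim28, Trim27 and Trim59 lead the lower genes.

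The interferon-inducible TRIM genes moved to the higher side at pHe6.6. The list of these genes rests on textbook knowledge of interferon responses and was drawn up with earlier results of these data known. Its counts are therefore a description. Of its 13 genes, 11 were tested. Of these, 10 were higher, 0 lower and 1 did not pass, with 7 beyond the fold limit and a median log2 fold change of 0.92. Over all genes, 26.4% were higher and 15.0% were higher beyond the limit. Without Trim30c, 9 of 10 were higher, 6 of them beyond the fold limit. Of the 34 TRIM genes outside the list, 10 were higher, 10 lower and 14 did not pass, with a median of -0.02, which is close to the shares over all genes (26.4% higher and 25.9% lower). These 34 include Trim5 and Trim6, which lie beside listed genes on chromosome 7 and were higher. The summed level of the 11 interferon-inducible genes was 1032, 977.3 and 1018 CPM at pHe6.6, against 605.8, 575 and 597.4 CPM at pHe7.4. The summed level of the other 34 genes went the other way, with 1167, 1218 and 1210 CPM at pHe6.6, against 1376, 1362 and 1383 CPM at pHe7.4. The groups did not overlap in either sum.

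To show what the promoters of these genes hold, RefSeq promoter windows (GRCm38.p6, 250 bases before and 50 after an annotated start) were searched on both strands for the ISRE core, spelled GAAA, any 2 bases and GAAA again. The windows of Trim21, Trim34a and Trim26 are printed 5′ to 3′ on the gene's strand, with the core in capitals, which reads TTTC, any 2 bases and TTTC where it lies on the other strand. In Trim21 and Trim26, 2 overlapping cores run together. Trim21 and Trim34a are shown as genes that were higher at pHe6.6, and Trim26 as the gene of the list that was not.
Trim21, chr7:102565433-102565732, minus strand: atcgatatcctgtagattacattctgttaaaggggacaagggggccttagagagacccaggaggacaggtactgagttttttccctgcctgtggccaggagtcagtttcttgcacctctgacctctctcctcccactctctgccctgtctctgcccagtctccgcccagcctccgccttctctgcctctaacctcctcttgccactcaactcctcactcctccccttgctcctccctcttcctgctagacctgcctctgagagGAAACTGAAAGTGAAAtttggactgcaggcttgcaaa
Trim34a, chr7:104244207-104244506, plus strand: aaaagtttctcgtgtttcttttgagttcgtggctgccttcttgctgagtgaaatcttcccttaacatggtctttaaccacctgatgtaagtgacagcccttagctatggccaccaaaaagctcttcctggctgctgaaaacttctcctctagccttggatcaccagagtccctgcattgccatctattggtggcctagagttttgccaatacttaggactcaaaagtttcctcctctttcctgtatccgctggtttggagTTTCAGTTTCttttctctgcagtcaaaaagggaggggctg
Trim26, chr17:36836896-36837195, plus strand: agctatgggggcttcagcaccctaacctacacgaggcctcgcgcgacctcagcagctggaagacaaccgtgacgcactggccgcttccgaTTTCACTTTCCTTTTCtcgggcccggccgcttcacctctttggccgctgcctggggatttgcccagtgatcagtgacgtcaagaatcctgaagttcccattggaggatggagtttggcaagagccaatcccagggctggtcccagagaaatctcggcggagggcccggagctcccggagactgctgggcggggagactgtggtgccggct

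Related genes of chromosome 7 are shown by 70 bases around the core, all on the minus strand, to let the Trim30 sequences be compared with each other, and likewise those of Trim12c, Trim12a and Trim5. The starts of Trim30a are numbered by coordinate, so that on the minus strand the second lies upstream of the first.
Trim30a, first start, chr7:104446084-104446153: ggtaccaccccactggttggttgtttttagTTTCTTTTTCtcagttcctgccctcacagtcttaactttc
Trim30a, second start, chr7:104465190-104465259: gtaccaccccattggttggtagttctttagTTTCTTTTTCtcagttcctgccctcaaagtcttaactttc
Trim30d, chr7:104507851-104507920: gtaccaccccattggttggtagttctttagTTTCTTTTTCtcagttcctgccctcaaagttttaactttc
Trim12c, chr7:104353339-104353408: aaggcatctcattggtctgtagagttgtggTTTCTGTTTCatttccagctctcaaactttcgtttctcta
Trim12a, chr7:104315446-104315515: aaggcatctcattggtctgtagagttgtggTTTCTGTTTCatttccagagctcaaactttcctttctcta
Trim5, chr7:104288116-104288185: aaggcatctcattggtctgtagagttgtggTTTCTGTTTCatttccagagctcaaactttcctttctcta

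Over these 70 bases, compared position by position without gaps, Trim12a and Trim5 did not differ (0 mismatches). Trim12c differed from either by 3 bases, and Trim30d differed from the second start of Trim30a by 1 base. The first start of Trim30a differed from its second start by 17 bases and from Trim30d by 18. Before the core its stretch is shifted by 1 base against theirs, so that these counts without gaps overstate the difference. Between the Trim30 sequences and those of Trim12c, Trim12a and Trim5, 34 to 41 of the 70 bases differed. The cores of Trim12c, Trim30a (second start), Trim30d and Trim5 began 29, 36, 41 and 49 bases before their annotated starts, and those of Trim12a and of the first start of Trim30a began after the annotated start. The cores of Trim21 and Trim34a likewise began after the annotated start, whereas those of Trim26 began 160 and 154 bases before it.

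Windows were found for 35 of the 45 TRIM genes, Trim14 not among them. The ISRE core was in a window of 9 of these 35 genes (25.7%), against 3.99% of all genes with a window. Among the interferon-inducible genes it was in 7 of 10 (70%), and Trim25, Trim30c and Trim56 had none in their windows. Among the other TRIM genes it was in 2 of 25 (8%), namely Trim5 and Trim2. The gamma-activated site, spelled TTC, any 3 bases and GAA, was in windows of 4 of the 35 genes (11.4%, against 9.55% of all genes), of which Trim30c was on the interferon-inducible list. Of the 9 TRIM genes with an ISRE core, 7 were higher, Trim2 was lower and Trim26 did not pass, with a median log2 fold change of 0.79. Among these 9, Trim5, Trim12a, Trim12c, Trim30a, Trim30d and Trim34a are neighbours on chromosome 7, some with nearly the same stretch around the core, and all were higher. Outside these neighbours only Trim21 was higher, so that the 9 genes are not independent of each other. Of the 26 without it, 10 were higher, 7 lower and 9 did not pass, with a median of -0.02. Over all genes tested, 39.2% of the 436 with the core were higher and 19.3% lower, and 26.9% of the 10781 without it were higher and 27.2% lower. A match of these letters is a description of the window and not a binding site.

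**Figure D2:**
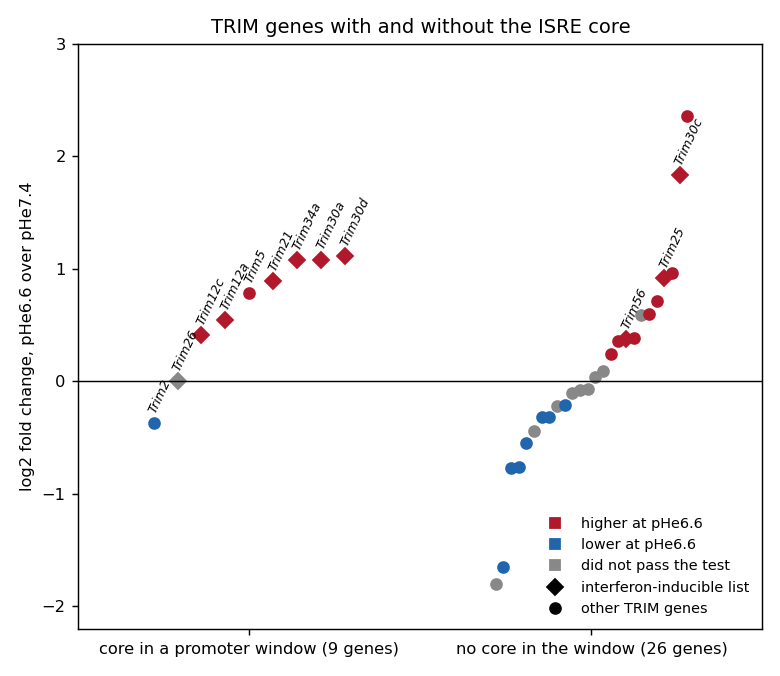
Log2 fold change, pHe6.6 over pHe7.4 (y axis), of the 35 TRIM genes with a RefSeq promoter window, split by whether a window holds the ISRE core. Each point is a gene, ordered by value within its column, with diamonds for the interferon-inducible list. The 9 genes with the core have a median of 0.79, against -0.02 for the 26 without it, and Trim26 has the core and lies at 0. Of the 9, Trim5, Trim12a, Trim12c, Trim30a, Trim30d and Trim34a are neighbours on chromosome 7 and not independent of each other.

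Trim14, an adaptor of the mitochondrial antiviral protein MAVS that has no RING domain, had the largest fold change of the interferon-inducible genes. It was at 13.4, 12.4 and 14.4 CPM at pHe6.6, against 3.65, 3.27 and 3.16 CPM at pHe7.4. The groups lay far apart relative to their spread (13.4 ± 0.961 CPM at pHe6.6, against 3.36 ± 0.256 CPM at pHe7.4, SD, n = 3 each), with a log2 fold change of 1.99 ± 0.12 (SE, adjusted p = 2.3e-05). Of its exon bases, 38.0% overlap genes on the opposite strand, among them Nans. Nans itself was lower at pHe6.6, at 68.6 ± 5.48 CPM against 95.4 ± 2.77 CPM at pHe7.4 (SD, n = 3 each, log2 fold change -0.48, adjusted p = 0.0012), and the strand setting of the counting is not given in the sources used here.

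Trim30a was the most abundant member of the list per length of transcript. In mice it lowers Toll-like receptor signalling to NF-kB by way of TAB2 and TAB3. Its level was 266, 259.9 and 263 CPM at pHe6.6, against 129, 123 and 121 CPM at pHe7.4. The libraries of a group were close together and the groups did not overlap, with a log2 fold change of 1.08 ± 0.06 (SE, adjusted p = 1.7e-05, 95% interval 0.95 to 1.22).
Its neighbour Trim30d followed the same order at a lower level, with 95.2, 89.5 and 91.2 CPM at pHe6.6, against 44.9, 42.1 and 40.6 CPM at pHe7.4 (log2 fold change 1.11 ± 0.06, SE, adjusted p = 2.2e-05). Trim30c reached the filter in 3 libraries at pHe6.6 and 1 at pHe7.4. It was scarce, with 32, 42 and 66 counts at pHe6.6, against 17, 9 and 16 counts at pHe7.4. In CPM this was 1.43 ± 0.491 at pHe6.6, against 0.396 ± 0.0977 at pHe7.4 (SD, n = 3 each), without overlap, for a log2 fold change of 1.83 ± 0.35 (SE, adjusted p = 0.0037).

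Trim25 and Trim21 were higher at pHe6.6 in every library. Trim25, which attaches ubiquitin to the RNA sensor RIG-I, was at 287, 259 and 298 CPM at pHe6.6, against 148, 141 and 157 CPM at pHe7.4 (log2 fold change 0.92 ± 0.08, SE, adjusted p = 8.3e-05). Trim21, a cytosolic receptor for antibody-coated virus, was at 44.1, 41.2 and 43.1 CPM at pHe6.6, against 22.2, 25.3 and 21.8 CPM at pHe7.4 (log2 fold change 0.89 ± 0.08, SE, adjusted p = 1.1e-04). Both genes thus differed by a similar factor (1.89 for Trim25 and 1.85 for Trim21), and neither overlapped another gene or shared sequence windows with one.

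Trim34a had 18.2, 15.2 and 15.2 CPM at pHe6.6, against 6.93, 7.63 and 8.37 CPM at pHe7.4 (log2 fold change 1.08 ± 0.12, SE, adjusted p = 2.8e-04). The groups did not overlap, but 48.6% of its 75-base windows also occur in other genes, among them Trim34b, so that the assignment of its reads is uncertain. Trim34b, which lay below the filter, had 15, 11 and 18 counts at pHe6.6, against 5, 6 and 1 counts at pHe7.4, and Trim30b had 12, 28 and 17 counts at pHe6.6, against 8, 6 and 11 counts at pHe7.4.

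Among the 10 genes of the list that passed the test, Trim12a, Trim12c and Trim56 had the smallest changes. Trim12a was at 37.3, 31.7 and 31.0 CPM at pHe6.6, against 23.7, 22.2 and 22.5 CPM at pHe7.4 (log2 fold change 0.55 ± 0.09, SE, adjusted p = 0.0017). Trim12c, which in mice acts with TRAF6 in interferon and NF-kB signalling, was at 74.5, 76.3 and 68.4 CPM at pHe6.6, against 53.2, 59.5 and 52.1 CPM at pHe7.4 (log2 fold change 0.41 ± 0.08, SE, adjusted p = 0.0031). Trim56, which acts on the STING pathway of DNA sensing, was at 118, 119 and 122 CPM at pHe6.6, against 97.9, 80.1 and 99.3 CPM at pHe7.4 (log2 fold change 0.37 ± 0.09, SE, adjusted p = 0.0092). For all 3 genes the groups did not overlap, and the fold changes were inside the fold limit.

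Trim26, which acts on the interferon transcription factor IRF3, did not follow the rest of the list. It was at 77.2, 71.9 and 70.2 CPM at pHe6.6, against 76.1, 71.3 and 71.7 CPM at pHe7.4. The groups overlapped, with means of 73.1 ± 3.69 CPM at pHe6.6, against 73.0 ± 2.69 CPM at pHe7.4 (SD, n = 3 each), and the 95% interval of its log2 fold change ran from -0.15 to 0.15.

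**Figure D3:**
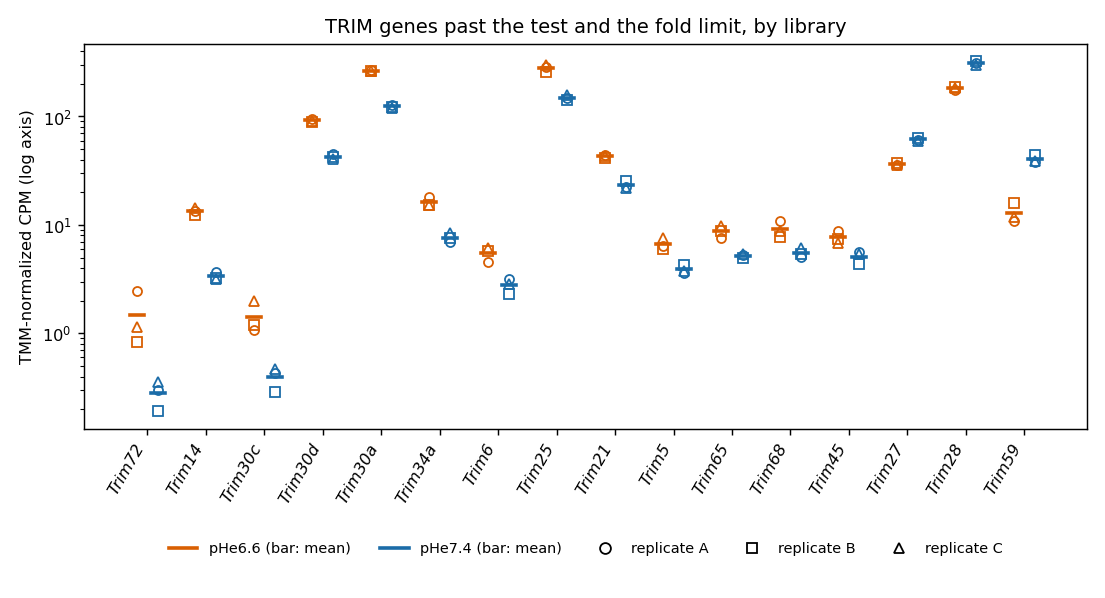
TMM-normalized CPM (log axis) of the 16 TRIM genes past the test and the fold limit, in each of the 3 pHe6.6 and 3 pHe7.4 libraries, with bars at the group means. These genes were chosen by the test on the same libraries, and their groups do not overlap, as for 63.2% of all genes tested. Trim72 and Trim30c reached the filter in 2 or more libraries only at pHe6.6. Trim72 spans 0.832 to 2.47 CPM within pHe6.6, while the 3 pHe6.6 libraries of Trim30a lie between 259.9 and 266 CPM.

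Several of these genes lie side by side. Trim6, Trim34a, Trim5, Trim12a, Trim12c, Trim30c, Trim30a and Trim30d occupy 289 kb of chromosome 7 (chr7:104218793-104507849, GRCm38), and all 8 were higher at pHe6.6 (against 26.4% of all genes), with 6 beyond the fold limit (against 15.0% of all genes) and a median log2 fold change of 1.02. Without Trim30c, all 7 were higher, 5 of them beyond the limit. Some of these genes share sequence. The share of 75-base windows found in other genes was 20.6% for Trim5, 17.3% for Trim12c and 5.58% for Trim12a, which share windows with each other. It was 5.41% for Trim30d and 4.98% for Trim30a, which likewise share windows, against 0.486% for Trim6 and 0 for Trim30c. Reads from such stretches match more than 1 gene. Leaving out every gene of this cluster, whether or not it shares windows, 5 tested interferon-inducible genes were left, of which 4 were higher, 3 of them beyond the fold limit, with a median of 0.89.

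Of the other TRIM genes of innate immune signalling, 11 were tested, and 4 were higher, 3 were lower and 4 did not pass, with a median log2 fold change of 0.04. With so few genes this is near the 26.4% higher and 25.9% lower of all genes. Trim6, whose human counterpart supports signalling by the kinase IKKe, was at 4.51, 5.77 and 6.09 CPM at pHe6.6, against 3.20, 2.32 and 2.87 CPM at pHe7.4 (log2 fold change 0.96 ± 0.19, SE, adjusted p = 0.0041). Trim65, which acts on the RNA sensor MDA5, was at 7.59, 8.84 and 9.70 CPM at pHe6.6, against 5.26, 4.93 and 5.35 CPM at pHe7.4 (log2 fold change 0.75 ± 0.13, SE, adjusted p = 0.0023). Trim68 was at 10.9, 7.66 and 8.80 CPM at pHe6.6, against 5.11, 5.40 and 6.15 CPM at pHe7.4 (log2 fold change 0.71 ± 0.16, SE, adjusted p = 0.0071). None of these 3 genes overlapped between the groups. Trim8, an activator of NF-kB signalling, was higher by a log2 fold change of 0.19 ± 0.06 (SE, adjusted p = 0.026), a call that was lost in 4 of the 6 fits without 1 library (adjusted p of up to 0.082, without pHe6.6 C).

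In the other direction, Trim27, a transcriptional repressor also known as RFP, was at 35.5, 36.9 and 36.0 CPM at pHe6.6, against 61.3, 63.4 and 59.5 CPM at pHe7.4. The groups were far apart, with a log2 fold change of -0.76 ± 0.06 (SE, adjusted p = 6.0e-05). Trim32, which is mutated in a form of muscular dystrophy, had a log2 fold change of -0.31 ± 0.06 (SE, adjusted p = 0.0034), and Trim35 one of -0.28 ± 0.06 (SE, adjusted p = 0.0061). Trim11, Trim13, Trim23 and Trim41 did not pass the test.

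Of the 4 TRIM genes with a PHD finger and a bromodomain, which read chromatin, 3 were lower and 1 did not pass, against 25.9% lower among all genes, and of these 3 calls only that of Trim28 held in every fit that left out 1 library. Trim28 (KAP1), the corepressor through which KRAB zinc finger proteins silence retroelements, was at 176, 185 and 183 CPM at pHe6.6, against 309, 321 and 297 CPM at pHe7.4. The lowest pHe7.4 library lay well above the highest pHe6.6 library, and the log2 fold change was -0.77 ± 0.06 (SE, adjusted p = 7.2e-05, 95% interval -0.92 to -0.63). Trim33, which binds Smad4, had a log2 fold change of -0.31 ± 0.11 (SE, adjusted p = 0.043), with overlapping groups, and Trim24, a cofactor of nuclear receptors, one of -0.21 ± 0.07 (SE, adjusted p = 0.042). Both calls were lost in most of the fits that left out 1 library, with an adjusted p of up to 0.14 for Trim33 (without pHe7.4 C) and 0.13 for Trim24 (without pHe7.4 C). Trim66 was at 6.10, 5.94 and 6.18 CPM at pHe6.6, against 5.11, 2.22 and 4.73 CPM at pHe7.4, without overlap, and did not pass the test (log2 fold change 0.59 ± 0.28, SE, adjusted p = 0.12).

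Genes with NHL repeats, of the cytoskeleton and of the membrane were lower or did not pass, with 2 of 3, 2 of 4 and 1 of 2 lower at pHe6.6 and 0 higher (25.9% of all genes were lower and 26.4% higher). These lists hold only genes with a Trim symbol, and the microtubule-associated members Mid1 and Mid2, given below, were higher. Trim59, an endoplasmic reticulum membrane protein, had the largest decrease of the family that passed the test. It was at 10.8, 16.1 and 11.7 CPM at pHe6.6, against 38.4, 43.7 and 39.0 CPM at pHe7.4. The groups were separated by more than their spread (12.9 ± 2.80 CPM at pHe6.6, against 40.4 ± 2.90 CPM at pHe7.4, SD, n = 3 each), for a log2 fold change of -1.65 ± 0.15 (SE, adjusted p = 1.4e-04).
Trim37, which limits the formation of centrosomes, was lower by a log2 fold change of -0.55 ± 0.09 (SE, adjusted p = 0.0018). Trim2, a ligase for neurofilament light chain, had one of -0.37 ± 0.07 (SE, adjusted p = 0.0035). Trim46, which organizes axonal microtubules, had one of -0.32 ± 0.11 (SE, adjusted p = 0.043), which was lost in 4 of the 6 fits without 1 library (adjusted p of up to 0.13, without pHe7.4 A). Trim3, Trim13 and Trim36 did not pass the test. Trim9, a neuronal member, had 0, 9 and 12 counts at pHe6.6, against 9, 35 and 32 counts at pHe7.4, and its log2 fold change of -1.80 ± 0.87 (SE) did not pass either (adjusted p = 0.12).

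Among the remaining genes, Trim72 (MG53), which patches the plasma membrane of muscle cells, had the highest fold change of the family and a low level. It reached the filter in 3 libraries at pHe6.6 and 0 at pHe7.4, so that it was tested only through its pHe6.6 level. It had 73, 29 and 38 counts at pHe6.6, against 12, 6 and 12 counts at pHe7.4. All pHe6.6 libraries were above all pHe7.4 libraries, with pHe6.6 A well above pHe6.6 B and C (1.48 ± 0.872 CPM at pHe6.6, against 0.283 ± 0.0838 CPM at pHe7.4, SD, n = 3 each), and the log2 fold change was 2.36 ± 0.50 (SE, adjusted p = 0.0056, 95% interval 1.21 to 3.51). Leaving out 1 library moved it between 1.79 (without pHe6.6 A) and 2.65 (without pHe6.6 B). Of its exon bases, 27.6% overlap Gm15533 on the opposite strand, which had 4, 2 and 3 counts at pHe6.6, against 0, 0 and 1 counts at pHe7.4.

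Trim5, a relative of the human retrovirus restriction factor, was at 6.41, 6.02 and 7.65 CPM at pHe6.6, against 3.60, 4.29 and 3.76 CPM at pHe7.4 (log2 fold change 0.79 ± 0.15, SE, adjusted p = 0.0036). Trim45 was at 8.85, 7.49 and 6.87 CPM at pHe6.6, against 5.59, 4.32 and 5.35 CPM at pHe7.4 (log2 fold change 0.60 ± 0.15, SE, adjusted p = 0.014). The groups of both genes did not overlap.
Smaller increases were found for Trim62 (log2 fold change 0.39 ± 0.10, SE, adjusted p = 0.014), Trim47 (0.36 ± 0.07, SE, adjusted p = 0.0044) and Trim44 (0.24 ± 0.08, SE, adjusted p = 0.034). Without pHe6.6 C the adjusted p was 0.051 for Trim62 and 0.093 for Trim44. Trim17 was at 0.712, 0.574 and 0.452 CPM at pHe6.6, against 0.378, 0.318 and 0.207 CPM at pHe7.4, without overlap, and did not pass (adjusted p = 0.066), and 19.0% of its exon bases overlap Hist3h2a. Trim7, Trim15, Trim16, Trim39 and Trim69 did not pass either.

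The order of the TRIM transcripts by level per length changed at its head. In CPM per kilobase of exon, Trim30a was first in each pHe6.6 library, at 63.9 ± 0.684 at pHe6.6, against 30.2 ± 1.03 at pHe7.4 (SD, n = 3 each). Trim28 was first in each pHe7.4 library, with a level of 43.6 ± 1.20 at pHe6.6, against 74.4 ± 2.90 at pHe7.4 (SD, n = 3 each), where it ranked 3 at pHe6.6. Trim25 was at 48.9 ± 3.46 at pHe6.6, against 25.8 ± 1.40 at pHe7.4, and Trim35 at 34.7 ± 1.53 at pHe6.6, against 42.2 ± 0.727 at pHe7.4 (SD, n = 3 each). Trim35 and Trim8 (33.1 ± 1.44) were neighbours in that order at pHe6.6 whose levels lay within their spread of each other. At pHe7.4, Trim30a and Trim8 (28.9 ± 0.644) were such neighbours.

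**Figure D4:**
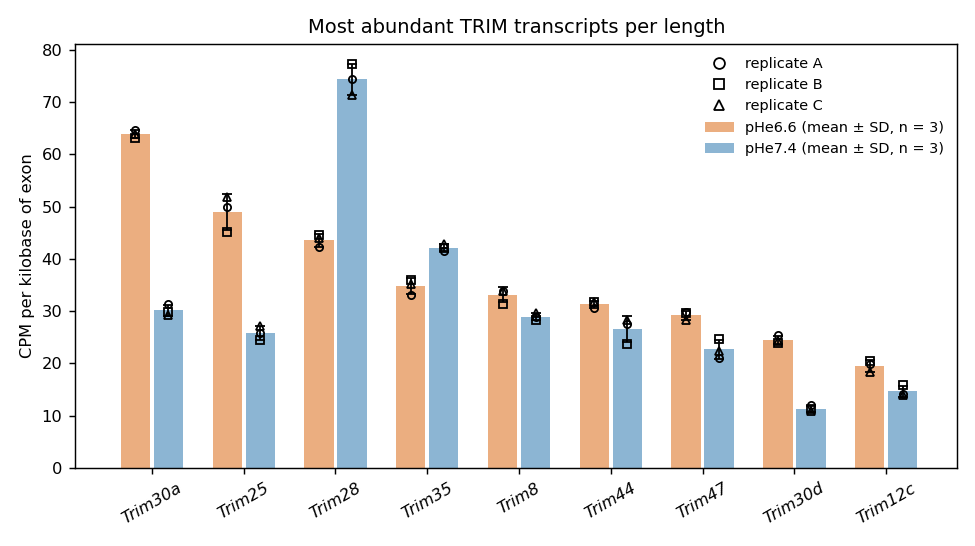
Level per length (CPM per kilobase of exon, y axis starting at 0) of the 9 TRIM genes with the highest mean level at pHe6.6. Bars are means, error bars SD (n = 3 libraries per group) and points the libraries. Trim30a leads at pHe6.6 (63.9) and Trim28 at pHe7.4 (74.4).

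TRIM genes that carry other symbols, and the partners of the family, were read from lists, beside 26.4% higher and 25.9% lower over all genes. Of 8 family members with other symbols 4 were tested. Pml, the core of nuclear bodies, was at 193 ± 5.99 CPM at pHe6.6, against 107 ± 6.16 CPM at pHe7.4 (SD, n = 3 each, log2 fold change 0.85, adjusted p = 6.0e-05). The microtubule-associated ligases Mid1 (log2 fold change 0.69, adjusted p = 0.011) and Mid2 (0.67, adjusted p = 0.0013) were also higher, and Bspry did not pass (-1.42, adjusted p = 0.092).

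Of 11 ubiquitin-conjugating enzymes that TRIM proteins can use, 2 were higher, 2 lower and 7 did not pass, shares below those of all genes in both directions, with a median log2 fold change of -0.10. Ube2l6, the conjugating enzyme for the interferon-induced modifier ISG15, was at 129 ± 8.84 CPM at pHe6.6, against 78.4 ± 9.03 CPM at pHe7.4 (SD, n = 3 each, log2 fold change 0.72, adjusted p = 6.7e-04). Ube2n, which builds K63-linked chains, was lower (-0.40, adjusted p = 0.0016).

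Of 12 partners of Trim28 in silencing, 6 were lower (against 25.9% of all genes), 2 higher and 4 did not pass, with a median log2 fold change of -0.18. The heterochromatin proteins Cbx5 (log2 fold change -0.67, adjusted p = 2.1e-04) and Cbx1 (-0.54, adjusted p = 3.0e-04) were lower, whereas Daxx (0.72, adjusted p = 6.1e-05) and Atf7ip (0.67, adjusted p = 0.0014) were higher.

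Of 12 tested innate immune targets of TRIM proteins, 7 were higher (against 26.4% of all genes), 1 was lower and 4 did not pass. Ifih1, which encodes MDA5, was at 249 ± 7.26 CPM at pHe6.6, against 89.0 ± 1.82 CPM at pHe7.4 (SD, n = 3 each, log2 fold change 1.49, adjusted p = 5.4e-06). Ddx58, which encodes RIG-I, was at 345 ± 4.49 CPM at pHe6.6, against 176 ± 10.9 CPM at pHe7.4 (SD, n = 3 each, log2 fold change 0.97, adjusted p = 4.1e-05). Mavs (0.43, adjusted p = 0.0021) and Ikbke (0.49, adjusted p = 0.0018) were higher by less. All 16 genes of a reference list of interferon-induced genes were higher, with a median log2 fold change of 1.11, led by Ifit3 (2.42, adjusted p = 2.5e-06).

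Beside the interferon-inducible genes, the macrophage markers overlapped between the groups in their sum, with 7 of 18 higher, 1 lower and 10 not passing. Over all genes tested, 26.4% were higher and 25.9% lower. T cell markers summed to at most 1.72 CPM in any library. Beside the lower genes, 9 of 12 mesothelial markers were lower at pHe6.6 and 3 did not pass, against 25.9% lower over all genes. The ductal markers summed to 40.5, 113 and 79.1 CPM at pHe6.6, against 261, 204 and 217 CPM at pHe7.4. The endothelial markers summed to 16.9, 31.4 and 22.5 CPM at pHe6.6, against 54.2, 43.8 and 55.4 CPM at pHe7.4. Of these 7 markers, 5 were lower (against 25.9% of all genes), 1 was higher and 1 did not pass. In pHe6.6 A, B and C, the mesothelial sum was at 174.9, 593.1 and 458.8 CPM. In the same order, Trim28 was at 176, 185 and 183 CPM and Trim59 at 10.8, 16.1 and 11.7 CPM. Each was lowest in pHe6.6 A and highest in pHe6.6 B. The part of these cell types in the TRIM results was not tested.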

How the data were processed

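RNA-Seq libraries were aligned by the authors with HISAT2 2.2.1 to mm10 and assigned to genes with featureCounts 2.0.1. The deposited table holds the resulting raw counts as whole numbers. The annotation release and strand setting are not given in the sources used here. The authors' comparison table (limma 3.50.1) also holds a log2 fold change, mean level, statistic and p-values per gene, none of which was used. Only its gene names served to choose the TRIM genes. The members and lists were chosen with earlier results of these data known.

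The analysis used edgeR 4.0.16 in R 4.3.3 (TMM factors, robust quasi-likelihood fit without covariates) on the 15197 genes that reached 0.5 CPM in 2 or more libraries, the study's filter. In the libraries, 1 count stood for 0.0252 to 0.0339 CPM. The study's own test was limma's, which was an alternative here together with DESeq2 1.42.0 (limma version 3.58.1). The code was tested on simulated data. Fold changes are pHe6.6 over pHe7.4, CPM are TMM-normalized, and p-values were corrected across all tested genes (Benjamini-Hochberg). The p-values set the group difference against the spread between these libraries, estimated with the help of all genes, and this spread may be partly technical. Depths and CPM per count cover counting error only, and a floor of 3 counts corresponds to 0.0756 to 0.102 CPM. Gene positions, exon lengths and shared 75-base windows came from a GRCm38 annotation, promoters from RefSeq (GRCm38.p6).

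Values in every library were given for members past the test and the limit of 0.58 on the log2 scale and for the interferon-inducible list, and fold changes for the other members that passed. From each pathway list, the 4 genes of lowest adjusted p at most could be named. Values in every library of Trim66, Trim17, Trim9, Trim30b and Trim34b, and the entries for Nans, Gm15533 and Hist3h2a were chosen after their values were seen.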

Additional observations from a re-analysis of the deposited data

How the results depend on the processing

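Each result was recomputed with other normalizations, filters and tests, without each library in turn and with the replicate letter as a block. Of 419 recomputed values for 31 named TRIM genes under 14 settings, 381 kept direction and side of the threshold, 33 kept direction only, and 5 changed sign. These 5 are log2 fold changes of Trim26, which was never called: it was -0.030 with upper-quartile factors, -0.025 with limma-voom, and -0.034 to 0.038 when 1 library was left out, with a negative sign without pHe6.6 A, pHe7.4 B or pHe7.4 C. When a library was left out, the number of TRIM genes higher at pHe6.6 was 17 to 20 and lower 7 to 9, with the fold limit 11 to 14 and 3 to 4, and the 10 interferon-inducible genes stayed higher in every such fit. Calls were lost for Trim24 in 5 of these 6 fits, for Trim33, Trim44, Trim46 and Trim8 in 4, and for Trim62 in 2. With the fold limit placed inside the test (glmTreat), 8 TRIM genes were higher instead of 13, because Trim5, Trim6, Trim45, Trim65 and Trim68 no longer passed. Without the genes of the chromosome 7 cluster and their copies, 4 instead of 10 interferon-inducible genes were higher, and 3 instead of 7 with the fold limit, since fewer genes were counted. The deviations of same-lettered libraries had correlations of -0.06 for A, -0.00 for B and 0.23 for C. Only C correlated best with its own letter. These values cannot settle whether the letters mark pairs, and the main fit did not take them as such. With the replicate block, 20 TRIM genes were higher and 9 lower, since Trim33 and Trim46 lost their call and Trim9 gained one (log2 fold change -1.95, adjusted p = 0.029). Counting only genes at the filter in both groups, an alternative chosen after seeing the data, left each of these counts within 1.5 times its value. Depth limits Trim72, Trim30c, Trim17, Trim9, Trim15, Trim36 and Trim69, whose libraries held 0 to 73 counts.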
